A study of Homo sapiens with 4 samples.

Results

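The genes of the cytosolic ribosomal proteins were followed in RNA from NCI-H1944 cells, a line from a human lung adenocarcinoma, after a pulse of mitotic checkpoint inhibition. Members were the protein-coding gene names that begin with RPL or RPS and a digit, with RPLP0, RPLP1, RPLP2 and RPSA, outside intergenic rows and off the Y chromosome. The rule gave 85 of 18745 protein-coding gene names. These were 74 ribosomal protein genes proper (44 of the large subunit and 30 of the small), 8 paralogs or like genes (RPL3L, RPL7L1, RPL10L, RPL22L1, RPL26L1, RPL36AL, RPL39L and RPS27L), the read-through genes RPL36A-HNRNPH2 and RPS10-NUDT3, and RPS19BP1, which is a binding partner of a ribosomal protein and not one itself. RPL7A, RPL12 and RPS20 had no row under their own names, and RPS2 had 0 counts in every library.

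All cells were NCI-H1944 of WT genotype. They were kept for 48 h in 100 nM of the MPS1 inhibitor BAY-1217389 (MPS1i) or in DMSO, the solvent control, then washed and grown for 24 h more. MPS1, the product of TTK, is a kinase that holds back chromosome separation until the spindle is attached. From each lysate 10% gave total RNA (Input) and the remainder was precipitated with the antibody J2, which recognises double-stranded RNA. The 2 treatments and 2 kinds of RNA make 4 groups of 1 library, so every difference compares single libraries and has no replicate check. The summed counts of the Input libraries were 6381610 (DMSO) and 4844956 (MPS1i), and those of the J2 libraries 9793355 and 6697479.

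Each ribosome of the cytosol is built from a large and a small subunit, in which a set of small basic proteins is held on ribosomal RNA. Their genes are short, strongly transcribed and rich in introns, and many of those introns carry small nucleolar RNAs that guide the modification of ribosomal RNA. Their messages usually start in a terminal oligopyrimidine tract, a run of C and T at the cap through which growth signals set their translation. Alu elements, primate repeats of which inverted copies can fold back on each other, lie in many introns and are a known target of J2.

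The starts of 8 members on which the results below turn are shown as 15 bases before and 15 bases from the annotated first base, with the pyrimidine run at that base in capitals. They were taken from RefSeq (GRCh38.p14).
RPS9: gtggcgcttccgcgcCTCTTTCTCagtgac
RPL13A: cgacaaaacctcctcCTTTTCCaagcggct
RPL22: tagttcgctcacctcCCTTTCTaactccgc
RPS6: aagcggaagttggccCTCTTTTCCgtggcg
RPS24: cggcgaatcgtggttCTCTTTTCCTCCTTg
RPS3A: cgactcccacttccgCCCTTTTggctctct
RPL22L1: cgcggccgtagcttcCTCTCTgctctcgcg
RPS27L: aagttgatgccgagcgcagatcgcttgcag

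A start at C followed by a pyrimidine run of at least 5 bases was found in 40 of the 60 ribosomal protein genes proper with a matched start (66.7%). The same was found in 1 of 6 paralogs (16.7%), RPL22L1, in 5 of 69 mitochondrial ribosomal protein genes (7.25%) and in 729 of 15843 protein-coding genes (4.6%). RPS27L, a paralog known as a p53 target, starts at G and has no run. Of the members shown, RPS9 and RPL22, called lower below, and RPS24 and RPS3A, called higher, all have the motif that most genes proper carry. Whether the motif goes with the direction of the calls was not tested.

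The rows are stranded regions that carry the name of the nearest gene start, so a row named after a ribosomal protein gene can lie in its introns, on its opposite strand or in a neighbour. The members had 2397 rows in the Input table and 3221 in the J2 table. Those rows held 38487 counts in DMSO Input, 31485 in MPS1i Input, 18911 in DMSO J2 and 10514 in MPS1i J2, which were 0.603%, 0.65%, 0.193% and 0.157% of the libraries. At least 1 read was present in 53.9% and 25.5% of the Input rows and in 45.1% and 36.4% of the J2 rows, DMSO first, so the reads of the MPS1i Input library lay in fewer regions. Of 11 lung epithelial markers 5 reached the minimum of 50 counts over the Input libraries and 6 over the J2 libraries. KRT8 had 3639 and 4133 Input counts. None of the leukocyte or fibroblast markers reached that minimum in any comparison.

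Reads of the 74 genes proper fell differently in Input and J2. Rows on the gene's strand that touch an exon held 25552 and 23735 Input counts but 772 and 572 J2 counts. Rows on the gene's strand that lie wholly in introns, called own-strand introns from here on, held 3177 and 1610 Input counts and 6911 and 2221 J2 counts. Rows on the opposite strand held 5045 and 2787 in Input and 1200 and 841 in J2, and rows outside the gene 3728 and 2707 in Input and 7815 and 5471 in J2. Exon-touching rows thus dominated Input, and introns and surrounding rows dominated J2.

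**Figure D1:**
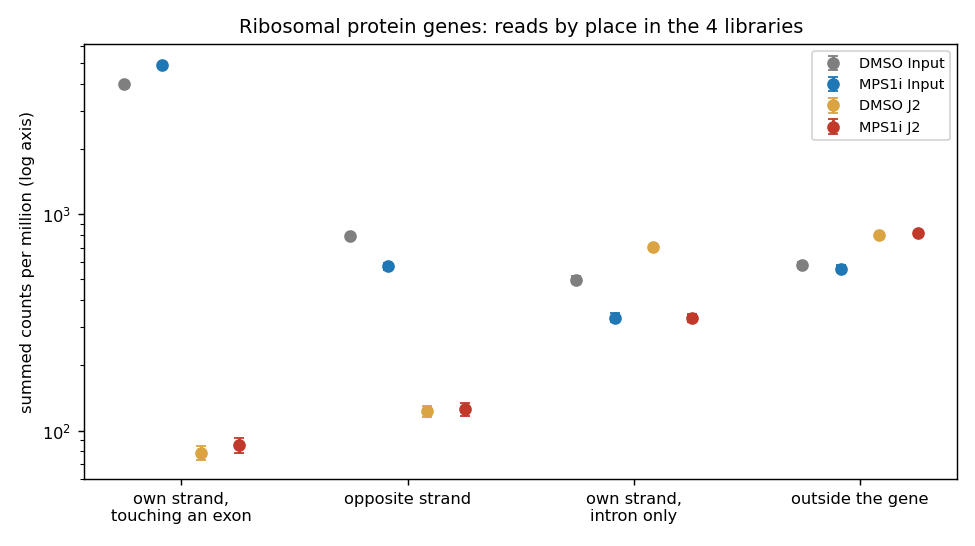
Summed CPM (counts scaled to the library total, log axis) of the 74 ribosomal protein genes proper by place of the row, for the 4 libraries; bars are 95% Poisson intervals of the count. Exon-touching rows stand highest in both Input libraries and lowest in both J2 libraries, and own-strand introns in J2 stand at 706 CPM in DMSO and 332 CPM in MPS1i.

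Almost all exon-touching Input reads of the genes proper came from 4 regions, 1 each of RPS6, RPL39, RPS18 and RPS14, which held 24979 of the 25552 DMSO counts. RPS6 encodes the small-subunit protein phosphorylated by S6 kinase, and its region at chr9:19377408-19378368 (minus strand) held 14155 DMSO and 11711 MPS1i Input counts. The RPL39 region at chrX:119789645-119789908 (minus strand) held 5917 and 6257. RPS18 at chr6:33272726-33273382 (plus strand) held 2678 and 2744, and RPS14 at chr5:150446386-150446802 (minus strand) held 2229 and 2537. Each region lies in an intron and shares exactly 1 base with the end of the exon before it, which is exon 4 of 6 in RPS6, 2 of 3 in RPL39, 2 of 6 in RPS18 and 3 of 5 in RPS14. The last 30 coding bases of those exons, on the gene's strand (GRCh38, GENCODE release 29 transcripts), are shown with the shared base in capitals.
RPS6: atgttgtaagaaagcccttaaataaagaaG
RPL39: gattcggatgaaaactggaaataaaatcaG
RPS18: aaaatagcctttgccatcactgccattaaG
RPS14: catcaaactccgggccacaggaggaaataG

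Regions that meet an exon by 1 base held 98.4% of the members' exon-touching DMSO Input counts, and 91.7% over all protein-coding genes. Whether reads of spliced messages that cover that base were counted there was not tested. None of the 4 regions differed by 2-fold between the Input libraries. On the log2 scale RPS6 was at 0.12 [0.09, 0.16], RPL39 at 0.48 [0.43, 0.53], RPS18 at 0.43 [0.36, 0.51] and RPS14 at 0.58 [0.50, 0.67], MPS1i over DMSO, with the 95% counting interval in brackets. In J2 the RPS18 region held 148 and 90 counts. RPS6, RPL39 and RPS14 had no J2 region that meets an exon by 1 base. Processed pseudogenes of ribosomal protein genes are common in the genome, and the treatment of reads with several matches is not given in the sources used here, so these values are uncertain.

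The first comparison set J2-bound RNA of the MPS1i library against that of the DMSO library. To be called higher or lower, a gene needed at least 50 counts over the libraries compared, a difference in CPM of 2-fold or more, and an exact 95% counting interval clear of no difference. In a bulk library, less RNA per cell and fewer cells that hold it cannot be told apart, and each level is a share of its library. Over all rows, 7 of 45 measured members were called higher and 13 lower, with a median log2 ratio of -0.26. Over all protein-coding genes measured 14.6% were called higher and 16.5% lower, with a median of -0.12. The higher members were RPL6, RPL9, RPL22L1, RPS3A, RPS24, RPS27 and RPS27L. Among the lower ones were RPL7L1, RPL13, RPL13A, RPL14, RPL22, RPL34, RPL38, RPL41, RPS9, RPS10, RPS15A and RPS19. This count mixes places that moved apart, so the places are described separately below.

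In own-strand introns the ribosomal protein genes were mostly lower in MPS1i J2. Of 24 measured members 16 were called lower and 2 higher, with a median of -1.46, where 28.3% of 8107 genes were called lower and 11.1% higher, with a median of -0.45. Summed over the genes proper the introns stood at 706 CPM in DMSO and 332 in MPS1i, a log2 ratio of -1.09 [-1.16, -1.02], and over all protein-coding genes the same sum was at -0.46. The large subunit had 9 of 12 measured members lower and the small subunit 6 of 10. Intron rows on the strand of these genes, whatever their name, gave a J2 sum of -0.95 [-0.99, -0.90]. Only 24 of the 85 members reached the minimum here.

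RPS9 and RPL13A carried much of this signal, with 43.4% of the members' own-strand intron counts in DMSO J2. RPS9, a small-subunit protein near the messenger RNA entry channel, had 643 counts in DMSO Input, 306 in MPS1i Input, 2113 in DMSO J2 and 464 in MPS1i J2. Its J2 ratio was -1.64 [-1.79, -1.49], and its 2 main J2 regions were alike, at chr19:54203779-54206275 (1109 and 236) and chr19:54202069-54203776 (982 and 218). RPL13A, a large-subunit protein also known for a role in silencing inflammatory messages, had 250, 53, 960 and 210 counts in the same order of libraries. Its J2 ratio was -1.64 [-1.87, -1.43] and its Input ratio -1.83 [-2.30, -1.41]. Both genes were thus highest in DMSO J2, and without them the sum over the genes proper was -0.76 [-0.85, -0.68].

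Further large-subunit members lay in the same direction. RPL22, whose loss is recurrent in some cancers, had 63 and 11 Input counts and 346 and 50 J2 counts, a J2 ratio of -2.23 [-2.70, -1.81]. RPL34 had 138 and 54 in Input and 625 and 151 in J2, at -1.50 [-1.77, -1.24]. RPL36A had 119 counts in DMSO J2 and 9 in MPS1i J2, at -3.10 [-4.34, -2.20]. In the Input table no counted intron row carried its name, but rows in its introns under another name held 11 and 1 counts. RPL14 fell from 51 to 4 J2 counts and RPL38 from 96 to 16. RPL24, RPL27, RPL37A and the paralog RPL7L1 were also called lower, between -1.07 and -1.50. For RPL37A the direction depends on which rows are counted. Its own-strand introns held 119 and 32 J2 counts, but its intron rows under any name held 478 and 519.

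Small-subunit members were divided. RPS19, the gene most often mutated in Diamond-Blackfan anaemia, had 120 and 42 Input counts and 391 and 61 J2 counts, a J2 ratio of -2.12 [-2.55, -1.74]. RPS10 had 124 and 63 in Input and 456 and 78 in J2, at -1.99 [-2.36, -1.65]. RPS15A had 44 and 24 in Input and 220 and 43 in J2, at -1.79 [-2.31, -1.33], and it was at -0.12 without its most-read region. RPS25 and RPS18 were also lower, at -1.47 and -1.01. RPS3A went the opposite way, with 34 and 56 Input counts and 11 and 109 J2 counts, a J2 ratio of 3.80 [2.96, 4.90]. A single intron region at chr4:151099978-151100420 gave 10 and 108 of those J2 counts. RPS24, whose last exons are alternatively spliced, had 232 and 213 in Input and 145 and 280 in J2, at 1.5 [1.20, 1.80]. RPS3A and RPS24 were thus the members whose introns were called higher in MPS1i J2.

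**Figure D2:**
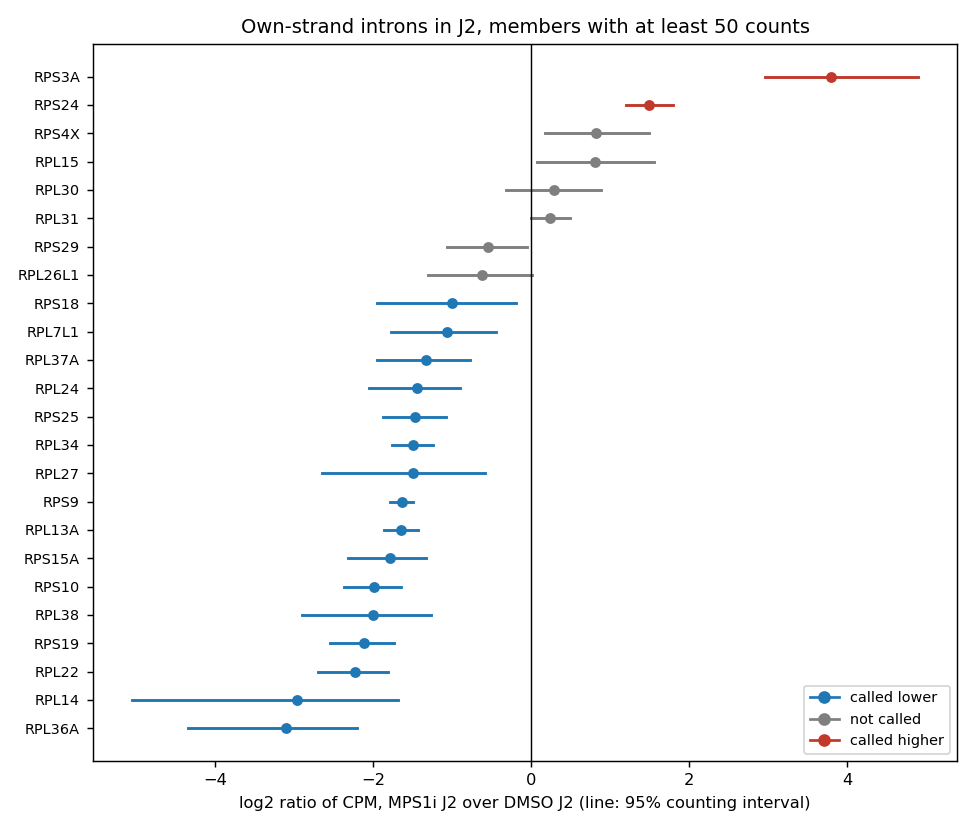
Log2 ratio of CPM, MPS1i J2 over DMSO J2, in own-strand introns of the 24 members with at least 50 counts; lines are 95% counting intervals, blue marks members called lower, red members called higher and grey those not called. The 16 lower members lie between -3.10 and -1.01, and RPS3A and RPS24 stand alone at 3.80 and 1.5.

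**Figure D3:**
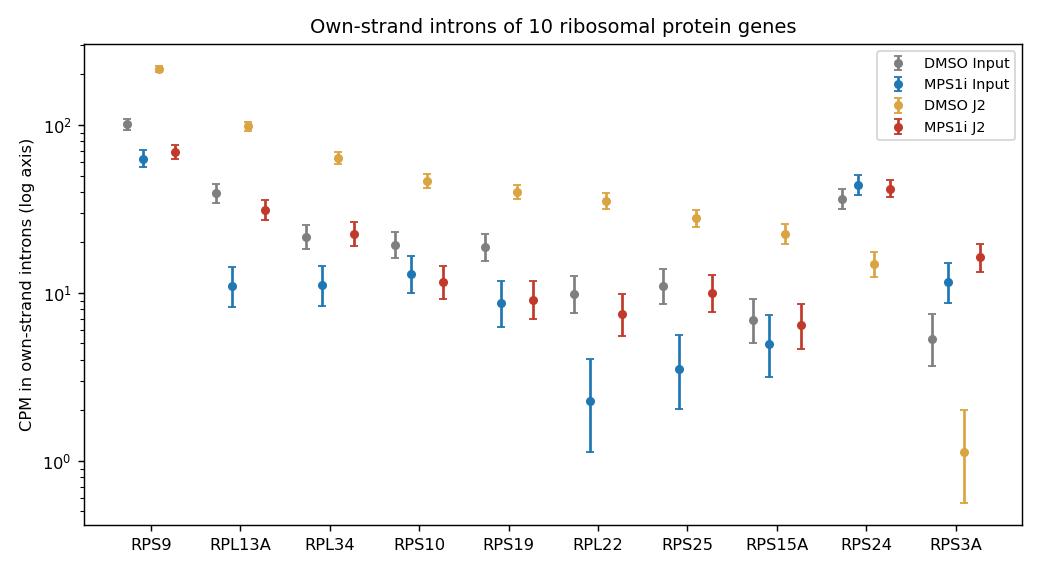
CPM in own-strand introns (log axis) of 10 ribosomal protein genes in the 4 libraries, with 95% Poisson intervals of the counts. DMSO J2 is the highest library in the first 8 genes, while in RPS24 and RPS3A it is the lowest.

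Intron rows that carry an Alu element on the strand had the lowest ratios. Those rows of the genes proper held 982 and 412 Input counts and 3795 and 838 J2 counts, a J2 ratio of -1.63 [-1.74, -1.52] against -0.64 over all protein-coding genes. Both main RPS9 regions are among them, and without RPS9 the ratio was -1.60 [-1.77, -1.44]. Rows with no repeat were at -0.74 [-0.85, -0.64] against -0.43, and rows with another repeat at -0.19 [-0.39, 0.00] against -0.40. In DMSO the Alu rows were enriched in J2 over Input at 1.33 [1.23, 1.44], where all protein-coding genes were at 1.31, and without RPS9 they were at 1.04 [0.90, 1.19]. In MPS1i they were at 0.56 [0.39, 0.73], where all protein-coding genes were at 1.0. Intron rows of other lists of the translation apparatus were also lower in MPS1i J2. Of 20 translation factors 11 were called lower and 0 higher, of 33 ribosome biogenesis factors 15 and 0, and of 40 mitochondrial ribosomal protein genes 15 and 1, with medians of -1.03, -0.92 and -0.84. The median of the cytosolic members was below these 3, a difference that was not tested.

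A limit applies to all of these intron values. When each region is counted at most once per library, the sum over the genes proper is at -0.00 in J2 and 0.16 in Input, and 0 members are called, because 1 member in J2 and 0 in Input keep the minimum. Counted so, a value is the number of covered regions as a share of all regions with a read in the library. Those numbered 940751 and 484849 in Input and 1208576 and 1176736 in J2, DMSO first. Whether duplicate reads were removed is not given in the sources used here.

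The second comparison, MPS1i against DMSO in Input, gives the same measure in total RNA. Over all rows 0 of 61 measured members were called higher and 12 lower, with a median of -0.26, where 11% of all measured genes were called higher and 13.2% lower. The lower ones were RPL7L1, RPL10, RPL13A, RPL21, RPL22, RPL26, RPL35A, RPL38, RPS7, RPS19, RPS27A and RPS29, with RPL38 lowest at -2.75 [-4.21, -1.72] from 66 and 7 counts. At 1.5-fold, 4 of the 61 members were higher and 20 lower, where 18.7% and 27.8% of all measured genes were. In own-strand introns 2 of 24 measured members were called higher and 11 lower, with a median of -0.81, where 9.45% and 22.6% of all measured genes were, with a median of -0.37. The sum of the introns stood at 498 and 332 CPM, at -0.58 [-0.67, -0.50], against -0.33 over all protein-coding genes. That sum takes only rows under the genes' own names. Intron rows on the strand of these genes, whatever their name, held 7579 and 5240 Input counts, at -0.135 [-0.19, -0.08]. RPS29 alone held 1503 and 1753 of those counts. No background was computed for rows of any name, so whether that sum lies below its background is not known. Without the most-read region of each gene 9 members kept the minimum, of which 2 were lower and 0 higher, where 29.6% and 7.04% of all measured genes were.

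The lower members in Input introns were RPL10, RPL13A, RPL21, RPL22, RPL26, RPL27, RPL35A, RPL38, RPS19, RPS25 and RPS29. RPL10, which joins the large subunit late in its assembly, had 123 and 39 counts, at -1.25 [-1.82, -0.73]. RPL35A had 51 and 1, at -4.70 [-10.61, -2.73], RPL21 77 and 11, at -2.36, and RPS29 75 and 12, at -2.20. The RPS29 value covers a small part of its introns, which under any name held 1503 and 1753 Input counts. Those of RPL10 under any name held 124 and 67, those of RPL22 115 and 55 and those of RPS19 352 and 139. RPL26, a binding partner of the p53 message, had 77 and 29, at -1.0 [-1.68, -0.38]. The higher members were RPS27 (14 and 45, 2.05 [1.19, 3.06]) and RPS3A (1.11 [0.48, 1.78]).

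Of 15 members measured in introns of both tables, 11 lay below 0 in both and 3 above 0 in both, and RPL31 was at 0.24 in J2 and -0.23 in Input. Of 6904 protein-coding genes measured in both, 56.4% lay below 0 in both and 21.5% above. Of the 10 members called lower in J2 and measured in Input, 6 were called lower in Input too, namely RPL13A, RPL22, RPL27, RPL38, RPS19 and RPS25. The same held for 980 of 1962 protein-coding genes (49.9%). RPS3A was called higher in both. For RPL22, RPS19 and RPS3A the Input call depends on which rows are counted. Under any name their Input introns held 115 and 55, 352 and 139, and 62 and 77 counts. J2 and Input libraries of 1 treatment come from the same lysate, so the tables are not independent samples.

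**Figure D4:**
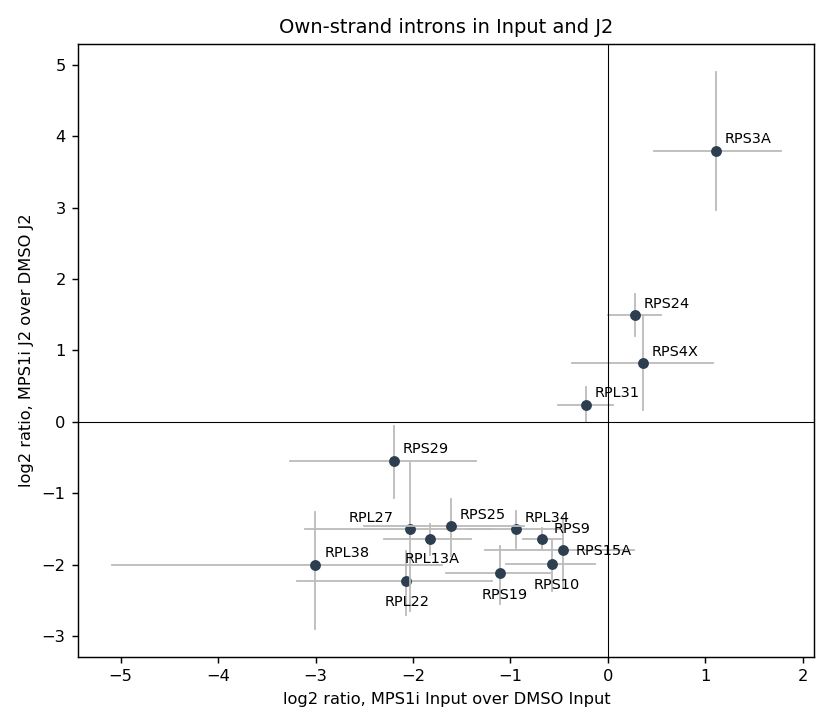
Log2 ratio of MPS1i over DMSO in own-strand introns in Input (horizontal axis) and J2 (vertical axis) for the 15 members measured in both; lines are 95% counting intervals. In all, 11 members lie at the lower left and RPS3A, RPS24 and RPS4X at the upper right.

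Another 2 comparisons set J2 against Input within each treatment. Over all rows in DMSO, 7 of 63 measured members were called higher in J2 and 31 lower, with a median of -0.88, where 16.8% of all measured genes were higher and 12.7% lower. In MPS1i the counts were 7 and 26 of 53, with a median of -0.82, where 16% and 11.5% were. The exon-touching genes stood lowest in DMSO. RPL39 was at -8.72 [-9.45, -8.14] from 5924 Input and 21 J2 counts, and RPS14 at -9.69 [-11.73, -8.50] from 2415 and 4. These values set unlike regions against each other, since no J2 region of RPL39 or RPS14 shares 1 base with an exon. The 21 J2 counts of RPL39 lay in a region wholly in an intron. How much of the 2 values comes from the regions was not tested. RPLP0, a protein of the ribosomal stalk, had 500 and 17 counts, almost all of the Input counts on the opposite strand (496). RPS4X, the X-linked copy of a small-subunit gene, likewise had 1168 of its 1207 DMSO Input counts on the opposite strand.

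The sums of the genes proper differed in sign between places. All rows gave -1.79 in DMSO, and own-strand introns gave 0.50 [0.44, 0.56] in DMSO and -0.00 [-0.10, 0.09] in MPS1i, against 0.40 and 0.27 over all protein-coding genes. Intron rows on the strand of these genes, whatever their name, gave 0.34 [0.30, 0.385] in DMSO and -0.47 [-0.52, -0.41] in MPS1i. The MPS1i value leans on 1 gene, since RPS29 held 1753 of its 5240 Input counts and 70 of its 5240 J2 counts. In own-strand introns 12 of 33 measured members were called higher in J2 and 11 lower in DMSO, with a median of 0.31, where 20% of all measured genes were higher and 9.65% lower. In MPS1i 6 of 20 were higher and 5 lower, where 15% and 8.21% were. The enriched introns in DMSO included RPL37A at 3.20 [2.25, 4.52], RPL22 at 1.83, RPL24 at 1.77, RPS15A at 1.69, RPL34 at 1.56, RPL13A at 1.32, RPS10 at 1.26 and RPS9 at 1.10. Those depleted included RPL22L1 at -5.66 [-9.05, -4.08] from 82 Input and 2 J2 counts, RPL10 at -5.11 and RPL26 at -3.50. Ribosomal protein introns thus differed among themselves in J2 recovery, and 4 of 18 members measured in both treatments were higher in both and 4 lower in both, where 7.23% and 4.1% of 6830 protein-coding genes were. RPL36A is counted among the 12 higher in DMSO with 0 Input counts, since its Input rows carry another name. Row names also bear on the extremes of RPL37A and RPL26. In DMSO their introns under any name held 127 Input and 478 J2 counts in RPL37A and 266 and 197 in RPL26.

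The last comparison is the change of J2 enrichment, the J2 over Input ratio in MPS1i divided by that in DMSO. Over all rows 12 of 44 measured members were called higher and 6 lower, with a median of 0.42, where 8.72% and 7.22% of all measured genes were. RPS27L, with 30 and 7 Input counts and 49 and 81 J2 counts, was at 2.89 [1.63, 4.15]. RPL22L1, with 98 and 61 in Input and 13 and 50 in J2, was at 2.73 [1.75, 3.71], and RPS3A was at 2.55. RPL6, RPL7, RPL7L1, RPL9, RPL21, RPL30, RPS24, RPS26 and RPS29 were also called higher, and RPL13, RPL14, RPL41, RPS9, RPS10 and RPS19 lower. In own-strand introns RPS3A (2.69), RPS29 (1.66) and RPS24 (1.22) were higher and RPL14 (-3.55), RPL24 (-1.46), RPS10 (-1.42), RPS15A (-1.33) and RPS19 (-1.02) lower, of 21 measured, where 9.05% of all measured genes were called higher and 10.1% lower. The RPS29 value depends on row names, since its introns under any name held 1503 and 1753 Input counts and 134 and 70 J2 counts. Besides RPS19, the members called lower in both tables were RPL13A at 0.19, RPL22 at -0.16, RPS25 at 0.15, RPL27 at 0.54 [-0.74, 1.81] and RPL38 at 1.0 [-0.58, 2.59]. None of these 5 was called. Row names also bear on RPL22 and RPS19. Under any name the introns of RPL22 held 115 and 55 Input counts and 653 and 108 J2 counts. Those of RPS19 held 352 and 139 in Input and 1084 and 219 in J2. The 4 libraries enter each value of the change, and the comparisons share them.

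Rows beyond the 3' end of the genes, on the gene's strand, ran in the opposite direction to the introns. Here intergenic rows that carry a member's name were added, which the membership rule leaves out. Summed over the genes proper these rows held 1028 and 1453 Input counts, at 0.90 [0.78, 1.01], and 2235 and 3186 J2 counts, at 1.06 [0.98, 1.14]. Over all protein-coding genes the same rows were at 0.48 and 0.42. Of 21 members measured in J2, 12 were called higher and 1 lower, with a median of 1.53, where 45.0% of 2155 measured genes were higher and 3.85% lower (median 0.82). In Input 10 of 16 were higher and 0 lower (median 1.49), where 42.7% and 4.18% of 1555 were, with a median of 0.75. The shares of members called are thus not far above the background.

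The difference was larger farther from the gene. In J2 the sums within 2 kb and from 2 to 5 kb past the end were both at 0.52, from 5 to 10 kb at 1.13, from 10 to 20 kb at 2.63 and from 20 to 50 kb at 1.64. In Input they were 0.23, 0.23, 1.44, 2.83 and 1.84. The last 3 bins rest on 19, 11 and 8 genes in J2 and on 17, 11 and 7 in Input. Over all protein-coding genes the J2 bins ran from 0.23 to 0.70. Rows before the start on the gene's strand were near 0, at -0.01 in J2 and -0.05 in Input, and opposite-strand rows past the end were lower, at -0.75 in J2 and -0.42 in Input.

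RPS23, a small-subunit protein of the decoding site, had 21 and 102 Input counts and 47 and 265 J2 counts past its end, a J2 ratio of 3.03 [2.59, 3.52]. Its most-read such region in J2, at chr5:82164399-82254563 (minus strand), held 21 and 150 counts and lies opposite ATG10. Rows that carry the RPS23 name but lie outside it on the strand of ATG10 went the other way, from 251 to 52 in Input and from 631 to 183 in J2. RPL31 had 32 and 134 Input counts and 174 and 424 J2 counts past its end, at 1.83 [1.58, 2.10] in J2. Rows of its name on the strand of the neighbour TBC1D8 held 1297 and 523 J2 counts, at -0.76 [-0.91, -0.61]. RPS24 had 16 and 89 in Input and 38 and 178 in J2, at 2.76, and RPL7 33 and 78 in Input and 45 and 258 in J2, at 3.05. The paralog RPL22L1 had 12 and 64 in Input and 10 and 144 in J2, at 4.33 [3.48, 5.49].

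RPS15A had lower introns but higher rows past its end, which held 25 and 76 Input counts and 46 and 79 J2 counts, at 1.32 [0.79, 1.89] in J2. RPS29 had 41 and 112 in Input and 61 and 153 in J2, at 1.87 [1.44, 2.33] in J2. RPL15, RPLP1, RPL6, RPL9 and RPS26 were also called higher in J2, between 1.53 and 1.99. RPS15 was the lower member, with 39 and 13 J2 counts. RPL34 was at -0.62 [-0.99, -0.27] and RPS6, which held 897 and 714 of the J2 counts, at 0.22 [0.08, 0.36]. Counting each region at most once left the sum over the genes proper at 0.80 in J2 and 1.13 in Input, unlike the intron sums. The divisor is then the number of regions with a read, 940751 and 484849 in Input, which by itself raises the Input value. No background was computed in that setting. Leaving out RPS6 gave 1.43 in J2 and 1.07 in Input.

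**Figure D5:**
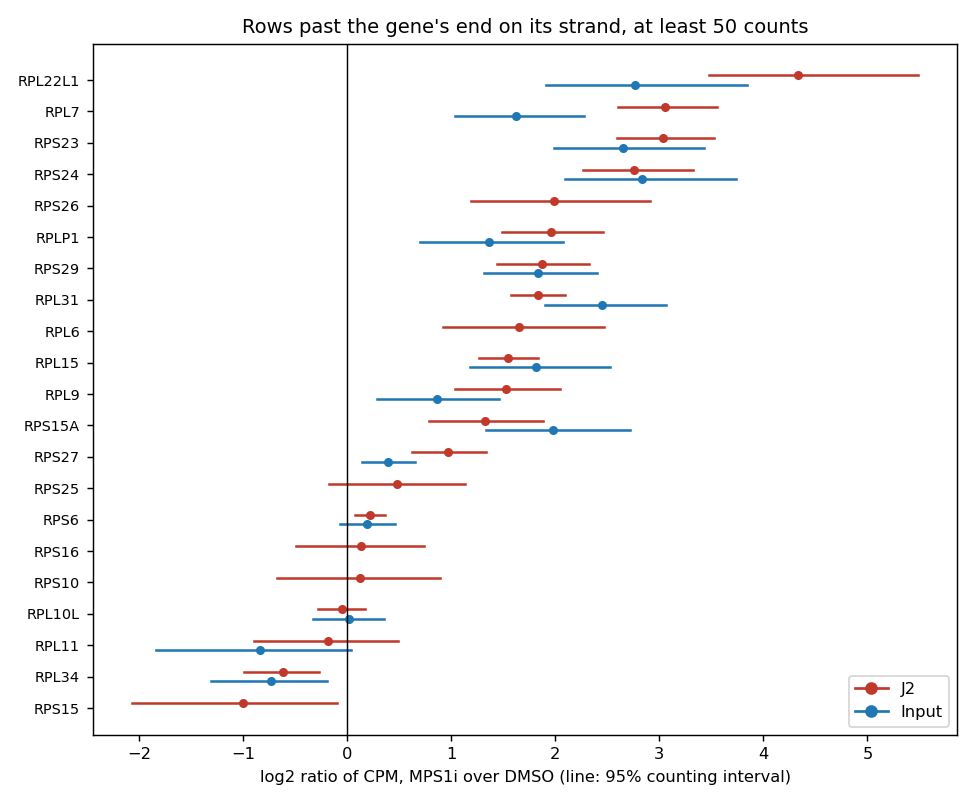
Log2 ratio of CPM, MPS1i over DMSO, of rows past the end of the gene on its strand, for the 21 members with at least 50 counts in J2 (red) and, where measured, in Input (blue); lines are 95% counting intervals. RPL22L1 is highest in J2 at 4.33, and RPS15, RPL34 and a few others lie below 0.

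Opposite-strand rows within the genes were unlike those of other genes in what they cover. Over all members, annotated exons on the gene's strand, of that gene or another, made up 53.4% of their bases in the Input table. Over all protein-coding genes the share was 9.95%, and in the J2 table the shares were 52.1% and 9.54%. The sum of such rows over the genes proper was at -0.46 [-0.53, -0.39] in Input and 0.04 [-0.09, 0.16] in J2, MPS1i over DMSO. The region opposite RPS4X at chrX:72272596-72277341 held 1166 and 713 Input counts, at -0.31 [-0.45, -0.18], and that opposite RPLP0 held 496 and 210, at -0.84 [-1.08, -0.61]. Neither reached 2-fold.

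Some members owed their all-row values to other genes. All Input counts of RPL10L, a testis paralog, lay outside it, around MDGA2 (555 and 403), and so did 1505 of its 1512 DMSO J2 counts. RPS13 (350 and 213 in Input, 890 and 492 in J2) and RPS27A (204 and 76 in Input), which encodes ubiquitin fused to a ribosomal protein, had no own-strand count at all. RPL6, RPL9, RPS27 and RPL22L1, called higher over all rows in J2, had 37 of 50, 101 of 104, 176 of 199 and 40 of 50 MPS1i J2 counts outside the gene. RPL13 and RPL41, called lower over all rows, had 17 of 18 and 30 of 30 there. RPS27L had 55 of its 81 MPS1i J2 counts on the opposite strand. RPL36A shares its start with RPL36A-HNRNPH2, and RPS10 with RPS10-NUDT3, so the division of rows between those names is uncertain.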

How the data were processed

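Total RNA (Input) and J2-precipitated RNA of NCI-H1944 cells were read from 2 tables of raw counts per stranded region as deposited by the authors. STAR, featureCounts, HOMER, cutadapt, Trimmomatic and Trim Galore, and the build GRCh38 (hg38), are named without roles or versions per the submitters' processing notes. Region calling and the handling of duplicate and multiply mapped reads were not given in the sources used here. The name of a row is that of the nearest gene start, per the file headers.

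Member rows were placed with GENCODE release 29 on or off the gene's strand and exons. Counts were divided by the library total and given per 1e6 (CPM). Where each region counted at most once, the divisor was the library's number of regions with a read. Log2 ratios use a pseudocount of 0.5, and intervals are exact (Clopper-Pearson) 95% intervals that cover counting error only, since reads are not independent molecules. Calls needed 50 counts, 2-fold and an interval excluding 1. The change of J2 enrichment needed 50 counts over both J2 libraries and 20 over both Input libraries, and its interval came from the delta method with the same pseudocount. With 1 library per group no p-value was computed. Between Input and J2 the regions differ, so sums depend on the covered length, which was 69266 bases of own-strand introns in Input and 77101 in J2.

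Named are members called in any comparison, those with the highest CPM, those with extreme ratios, and paralogs. Members and lists were chosen with earlier results of these data known. The split by place, the past-end rows and the values without single genes were added after the data were seen. The calling code was tested on simulated data. Tools were Python 3.11.15, pandas 2.3.3, NumPy 2.4.6, SciPy 1.17.1, R 4.3.3 and edgeR 4.0.16 (TMM factors of an alternative). Rows on the Y chromosome (3) were left out. Some members that were counted are not reported here by name.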

Additional observations from a re-analysis of the deposited data

Results flagged for a closer look

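RPL7 and RPS6 lay on opposite sides of 0 in the 2 tables over all rows, with counting intervals that exclude 0. RPL7, a large-subunit protein, was at 0.84 in J2 and -0.39 in Input, MPS1i over DMSO on the log2 scale, and its change of J2 enrichment, which is the difference of these values, was 1.24 [0.69, 1.79], called higher. In J2 its counts outside the gene were 7 and 31, and in Input its opposite-strand counts were 164 and 86. RPS6 was at -0.15 in J2 and 0.09 in Input, both under 2-fold, with a change of -0.24 [-0.36, -0.13] that was not called. The intervals cover counting error only, and with 1 library per group the difference was not tested over replicates.

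Intergenic rows that carry the name of a member were outside the comparisons over all rows. They were at 0.86 [0.77, 0.96] in Input (1621 and 2237 counts) and at 0.36 [0.30, 0.41] in J2 (4969 and 4347 counts). Intergenic rows named after any protein-coding gene were at 0.62 in Input and 0.38 in J2.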

How the results depend on the processing

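No paired analysis was possible because each group has 1 library. Of 222 alternative values of sums and counts, 87 stayed within their error or within 1.5 times the count, 125 moved and 10 turned direction, and beyond what the settings below do by construction the cause was not tested. Values are log2 ratios of the sum over the genes proper, or members called. Over all rows the main sums were -0.33 in J2, 0.12 in Input (both MPS1i over DMSO), -1.79 and -2.23 for J2 over Input in DMSO and MPS1i, and -0.44 for the change of enrichment.

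With TMM factors the J2 sum was -0.41, J2 over Input -1.83 and -2.38 and the change -0.54. In introns they gave -1.17 in J2 and -0.15 for J2 over Input in MPS1i, and past the end 0.98 in J2. With at most 1 read per region the J2 sum was -0.27 (0 higher, 1 lower) and the Input sum -0.094 (2 lower). J2 over Input was then -0.25 and -0.43 and the change -0.18, with 0 called either way in each. In introns that setting gave -0.0022 in J2, 0.16 in Input, and -0.60 and -0.76 for J2 over Input, with 0 called, and past the end 0.80 in J2 (3 higher, 0 lower) and 1.13 in Input (1 higher). Without the most-read region of each gene the sums were -0.26 in J2, -0.31 in Input (1 higher), 0.10 and 0.15 for J2 over Input (15 and 6 lower) and 0.050 for the change (7 higher). In introns they were then -0.99 in J2 (8 lower), -0.40 in Input (0 higher, 2 lower), 0.77 (7 higher, 2 lower) and 0.18 (1 higher, 0 lower), and past the end 0 members were lower in J2.

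Rows the table annotates as intron gave -0.46 in J2, 1 higher in Input, -1.94 and -2.53 for J2 over Input and -0.59 for the change (7 higher). Rows on the gene's strand within its body gave -0.91 (2 higher), 0.22 (1 higher), -2.52 (11 higher, 18 lower), -3.65 (11 lower) and -1.13 (4 higher), in the order of the main sums. Own-strand introns gave -1.09 (2 higher), -0.58 (2 higher), 0.50 (12 higher, 11 lower), -0.0031 (5 lower) and -0.51 (3 higher). Every row in the body whatever its name gave -0.81 (20 lower), 3 higher in Input, -2.0 (18 higher), -2.94 and -0.94 (5 higher, 10 lower). Without RPS6, RPL39, RPS18 and RPS14 the Input sum was -0.33, J2 over Input -0.18 and -0.20 and the change -0.021. Over 197 regions matched between the tables J2 over Input was -1.70 (2 higher, 14 lower) and -1.84 (2 higher, 7 lower), and over 23 matched in introns 0.86 (4 higher, 1 lower) and 0.36 (0 called). Without RPS9 and RPL13A the intron sums were -0.76, -0.47, 0.13 and -0.16, and without RPS6 the past-end sums were 1.43 in J2 and 1.07 in Input.

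With no count minimum 13 members were higher in J2 and 2 in Input, and 40 were lower in J2 over Input in MPS1i. In introns 10 were then higher in J2, 5 higher and 20 lower in Input, 27 lower in J2 over Input in DMSO, and 11 higher and 17 lower in MPS1i. At 1.5-fold 4 were higher and 20 lower in Input, 16 and 15 higher in J2 over Input, and 10 lower in the change. In introns 4 were then higher in J2, and past the end 2 were lower in J2 and 1 in Input.

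Of 93 alternatives for single genes 84 kept their call, 8 lost it and 1 turned direction, RPS15A introns in J2 over Input in DMSO without its most-read region (-0.21). With at most 1 read per region 64 of 65 gene values fell under the count minimum, and without the most-read region 38 did. Depth limits the intron values: 24 members reached 50 counts in each table.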

Other observations

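Many rows inside the bodies of ribosomal protein genes carry the names of small nucleolar RNAs that these genes host, and the rule for members leaves them out. On the gene's strand such rows held 12396 and 8386 Input counts, at -0.17 [-0.21, -0.13], and 6969 and 2642 J2 counts, at -0.85 [-0.92, -0.79]. RPL23A, a large-subunit protein at the exit of the nascent chain tunnel, had 464 and 135 Input counts and 3719 and 804 J2 counts in such rows, DMSO first. In J2 this exceeds the 2113 DMSO counts in the own-strand introns of RPS9. RPL32 had 207 and 48 counts in Input and 746 and 256 in J2. RPL4 had 9301 and 6239 in Input, most of the Input sum, but 0 and 1 in J2. Its intron-only rows under any name held 46 and 23 Input counts. Nearly all of its Input counts thus lay in rows that touch an annotated exon, of that gene or another. Of the genes with no row of their own, RPL7A had 936 and 849 Input counts under such names, RPL12 85 and 128, and RPS20 2 and 2. Intron-only rows held 9 and 26 of the RPL7A counts.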
